A study of Mus musculus with 48 samples.

Results

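The regions described here were bound by HNF4a in mouse liver at postnatal days 14 and 60 (P14, P60) and at none of the 3 earlier stages studied, E15.5 and E18.5 (days of embryonic life) and P0.5 (newborn). They were chosen by the HNF4a peak lists themselves, so their timing of HNF4a binding is how they were selected and not a result. At each stage the peaks of both replicates were merged where they overlapped and kept where both had a peak. Merging the 5 stages gave 63925 HNF4a regions. Of these, 4006 (6.27%) held a P14 and a P60 region and no earlier one, and they are called late regions below. The classes set beside them are 10028 regions bound at P60 only and 5758 regions bound at every stage.

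HNF4a is a nuclear receptor that binds DNA as a homodimer and activates genes of hepatocyte metabolism, among them those of bile acid, lipoprotein, amino acid and drug metabolism. C/EBPa is a basic leucine zipper factor of hepatocytes whose sites often lie beside those of HNF4a. Between birth and adulthood the liver gives up its fetal role in blood formation and takes on the enzymes of a feeding animal, many of which start only after birth or at weaning.

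The RNA libraries came from 2 livers labelled HNF4a KO (HNF4a lox/lox with Alfp-Cre), 3 labelled C/EBPa KO (C/EBPa lox/lox with Alfp-Cre) and 3 wild type (WT) livers, all from F1 mice of C57Bl6 and CBA parents. Alfp-Cre acts in hepatoblasts and the cells that descend from them, so other liver cells keep the gene. The labels say that the mice were male and untreated, and give standard or high-fat chow without saying which animals had which. The sample labels give these animals as 60 days old, whereas the series text gives E18.5, an age before the late regions were bound. In WT, the fetal gene Afp had 625821, 499143 and 706964 normalized reads, and the fetal growth factor Igf2 had 178393, 106407 and 183035. As the stated ages conflict, the RNA below is not taken as that of adult liver. The peak lists came from wild-type livers of the same strain, 2 for each factor and stage, and the labels list 2 HNF4a antibodies. The question these comparisons address, as the series title puts it, is how factors mark genes for later activation.

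HNF4a lists held 21262 to 53278 peaks and C/EBPa lists 13434 to 121624, with the fewest C/EBPa peaks at E15.5. Both HNF4a lists at P0.5 were identical and count as 1 library, so a region bound in that list counts as bound in both replicates. The deposited lists give positions without heights, so the number of peaks is the measure of depth for each list. RNA totals, in M (mega) normalized reads, were 26 and 20 in the HNF4a KO, 13.4 to 16.4 in the C/EBPa KO and 20.4 to 22.5 in WT. The hepatocyte gene Alb had 430946 and 863323 in the HNF4a KO, 670004, 127285 and 559934 in the C/EBPa KO, and 2758855, 1491169 and 3098691 in WT. HNF4a KO replicate 1 also held skeletal muscle RNA: Ckm, a muscle creatine kinase, had 234321 there and 20 in replicate 2, against 1, 10 and 5 in WT. Labels do not say whether samples of a group came from separate litters, so p-values measure the spread between these samples.

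The deposited lists do not hold the sequence of a region, and no mm9 genome was used here, so the sequences shown are promoters of genes whose annotated start lies inside a late region. They run from 250 bases before to 50 after the RefSeq start and come from RefSeq (build GRCm38.p6). The first 3 belong to genes that changed most in the HNF4a KO, and the other 3, added after the values were seen, have the late region nearest to the start among the other named genes. Serpina3k, whose start also lies inside a late region, is named only. Capitals mark matches, on either strand, to the HNF4 motif CAAAGNNCA, the C/EBP motif TTGCNNAA or the forkhead motif TGTTTAC; these letters overlapped nowhere in the 6 promoters.
Mbl2: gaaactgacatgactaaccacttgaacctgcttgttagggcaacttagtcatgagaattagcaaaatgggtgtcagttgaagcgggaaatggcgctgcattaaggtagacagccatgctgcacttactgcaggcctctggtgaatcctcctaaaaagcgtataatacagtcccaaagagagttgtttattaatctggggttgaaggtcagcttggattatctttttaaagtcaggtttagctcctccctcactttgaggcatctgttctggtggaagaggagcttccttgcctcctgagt
Apol7a: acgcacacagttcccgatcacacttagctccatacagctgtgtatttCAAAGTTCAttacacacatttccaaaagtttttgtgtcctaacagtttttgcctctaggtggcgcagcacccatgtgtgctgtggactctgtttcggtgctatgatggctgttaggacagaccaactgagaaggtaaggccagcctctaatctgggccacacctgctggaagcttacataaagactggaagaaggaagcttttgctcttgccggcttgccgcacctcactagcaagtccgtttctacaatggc
Slc17a3: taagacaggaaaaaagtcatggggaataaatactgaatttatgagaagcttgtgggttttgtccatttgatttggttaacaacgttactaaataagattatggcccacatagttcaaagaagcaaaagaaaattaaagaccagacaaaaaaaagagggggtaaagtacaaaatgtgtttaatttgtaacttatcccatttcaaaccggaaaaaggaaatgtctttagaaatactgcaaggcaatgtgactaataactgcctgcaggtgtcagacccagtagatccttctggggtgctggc
C4bp: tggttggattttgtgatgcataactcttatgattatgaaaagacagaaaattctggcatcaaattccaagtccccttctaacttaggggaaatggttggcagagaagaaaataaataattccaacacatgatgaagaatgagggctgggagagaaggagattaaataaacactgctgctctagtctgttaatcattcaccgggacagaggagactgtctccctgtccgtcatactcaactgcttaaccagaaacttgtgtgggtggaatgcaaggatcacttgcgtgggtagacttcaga
Nr1d1: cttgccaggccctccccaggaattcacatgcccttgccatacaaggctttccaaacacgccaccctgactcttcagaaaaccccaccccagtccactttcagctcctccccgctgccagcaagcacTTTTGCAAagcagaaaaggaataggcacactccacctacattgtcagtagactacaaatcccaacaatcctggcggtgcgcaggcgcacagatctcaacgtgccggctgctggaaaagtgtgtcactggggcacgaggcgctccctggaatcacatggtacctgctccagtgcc
Dhx8: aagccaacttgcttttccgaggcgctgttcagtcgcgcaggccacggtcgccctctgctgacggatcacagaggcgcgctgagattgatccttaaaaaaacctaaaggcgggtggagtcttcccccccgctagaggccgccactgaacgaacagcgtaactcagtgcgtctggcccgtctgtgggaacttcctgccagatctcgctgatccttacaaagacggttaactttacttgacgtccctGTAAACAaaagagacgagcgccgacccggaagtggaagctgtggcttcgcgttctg

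In GRCm38.p6 these stretches lie at chr19:30232678-30232977 on the plus strand for Mbl2, chr15:77399061-77399360 on the minus strand for Apol7a and chr13:23839184-23839483 on the plus strand for Slc17a3. Those of C4bp (chr1:130661569-130661868, minus strand), Nr1d1 (chr11:98775328-98775627, minus strand) and Dhx8 (chr11:101732706-101733005, plus strand) follow. The Apol7a promoter held the HNF4 match CAAAGTTCA at bases -203 to -195 from the start. The Nr1d1 promoter held a C/EBP match on the opposite strand, TTTTGCAA as printed, and the Dhx8 promoter a forkhead match, GTAAACA as printed. Those of Mbl2, Slc17a3 and C4bp held none of these letters in the window, which says nothing about the factor elsewhere in the region.

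Late regions covered the annotated start of 309 protein-coding genes, of which 209 matched a promoter in the table. HNF4 matches stood in 9 of these 209 promoters (4.31%), in 69 of 522 promoters covered by every-stage regions (13.2%) and in 845 of all 14911 promoters of the same length (5.67%). C/EBP matches stood in 5.26% of the late, 9.77% of the every-stage and 9.90% of all promoters. For the forkhead letters the shares were 2.87%, 3.64% and 2.93%. Promoters matched genes by symbol, and these shares are descriptions with no test.

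Late regions, like HNF4a regions as a whole, were mostly far from gene starts. The distance of the midpoint to the nearest protein-coding start had a median of 25.6 kb, against 23.4 kb for P60-only and 17.3 kb for every-stage regions. For all HNF4a regions this median was 27.3 kb. Of the 4006, 318 lay within 1 kb of a start (7.94%), 2050 lay further away but inside a gene (51.2%) and 1638 lay between genes (40.9%). The deposited annotation gives gene bounds and no exons, so introns and exons were not told apart. The share within 1 kb of a start was 9.35% for P60-only regions, 11.5% for every-stage regions and 9.18% for all HNF4a regions. Median widths were 973 bp for late, 731 bp for P60-only and 1219 bp for every-stage regions.

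Most late regions had a site bound earlier in their neighbourhood. The nearest HNF4a region bound at an early stage was a median of 6.76 kb away, and for 90% of late regions it was within 43.7 kb. Within 1 kb there was an early-bound region for 582 (14.5%), within 10 kb for 2386 (59.6%) and within 50 kb for 3661 (91.4%). P60-only regions gave 16.7%, 61.1% and 90.3% at the same distances. Of the late regions, 800 (20.0%) had another within 10 kb, and the nearest other late region was a median of 65.8 kb away. The spacing of other classes was not measured. On the X chromosome lay 109 late regions (2.72%), against 1.79% of E15.5, 6.08% of E18.5, 1.65% of P0.5, 2.32% of P14 and 1.90% of P60 regions, 3.39% of all HNF4a regions and 4.16% of protein-coding genes. There, a predicted gene, Gm17326, had 6 late regions within 50 kb, the most of any gene, and was listed at 0 in all 8 RNA libraries.

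Some regions stood inside or outside the rule by a single list. Of the 4006, 1022 (25.5%) held an HNF4a peak in 1 replicate of an early stage. Of these, 745 had it in E15.5 replicate 1, 167 in E15.5 replicate 2, 153 in E18.5 replicate 1 and 91 in E18.5 replicate 2. The remaining 2984 overlapped no early peak in any list. On the outside, 811 regions bound at P14 and not before had a P60 peak in 1 replicate, and 2342 P60-only regions had a P14 peak in 1 replicate. Another 1812 regions bound at P14 and P60 were also bound at E15.5 alone of the early stages, 73 at E18.5 alone and 1904 at P0.5 alone. Of the 5287 regions bound at P14 and at no earlier stage, 4006 (75.8%) were held at P60. At P14 the overlap of the 2 replicates inside a late region had a median of 733 bp and a lowest value of 46 bp, and at P60 a median of 595 bp and a lowest value of 17 bp.

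C/EBPa, whose peaks the rule did not use, was found at more late regions in the later lists. At E15.5 a C/EBPa peak overlapped 10.2% of late regions in replicate 1 and 7.71% in replicate 2, and at E18.5 48.8% and 42.8%. At P0.5 the shares were 51.4% and 54.0%, at P14 61.2% and 61.8%, and at P60 68.8% and 80.4%. All 4 lists of P14 and P60 lay above all 6 earlier lists. The lists of E18.5 and P0.5 held 70171 to 121624 peaks, those of P14 40636 and 45245, and those of P60 52237 and 89407. Median widths of the C/EBPa peaks were 337 to 364 bp at E18.5 and P0.5, 638 and 642 bp at P14, and 405 and 470 bp at P60. The mean share was 68.1% ± 8.9 (SD, n = 4 lists) at P14 and P60 and 35.8% ± 21.1 (SD, n = 6 lists) before, a difference of 32.2 percentage points (exact permutation test, 2-sided, p = 0.00952, the smallest that 4 against 6 lists allow). With the 5 stages as units, the smallest p that stage means allow is 0.2, and they gave that value.

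At the other classes the same lists moved less. Every-stage regions held C/EBPa in 74.2% ± 6.4 of regions in the 4 lists of P14 and P60 and 67.7% ± 26.1 in the 6 earlier ones (SD), a difference of 6.48 points (exact permutation test, p = 0.657). P60-only regions gave 47.9% ± 16.3 and 30.7% ± 18.3 (SD), a difference of 17.2 points (exact permutation test, p = 0.21). The share at late regions minus that at every-stage regions, taken within each list, was -6.13 points at P14 and P60 and -31.9 points before, a difference of 25.7 points (exact permutation test, n = 4 and 6 lists, p = 0.00952). Against P60-only regions it was 20.1 points at P14 and P60 and 5.10 points before, a difference of 15.0 points (exact permutation test, n = 4 and 6 lists, p = 0.00952). These are 5 exact permutation tests on the same 10 lists, and the 3 at p = 0.00952 have an adjusted p of 0.0159 (Benjamini-Hochberg over the 5). The first of them taken as a log2 ratio to the every-stage share of the same list, a further version of that test left out of the 5, differed by 1.04 (exact permutation test, p = 0.00952). Peak counts and widths differ between stages, and their part in the shares was not tested. Within 300 bp of the midpoint, where region width plays no part, the lists of P14 and P60 stood 33.6 points above the earlier ones at late regions.

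**Figure D1:**
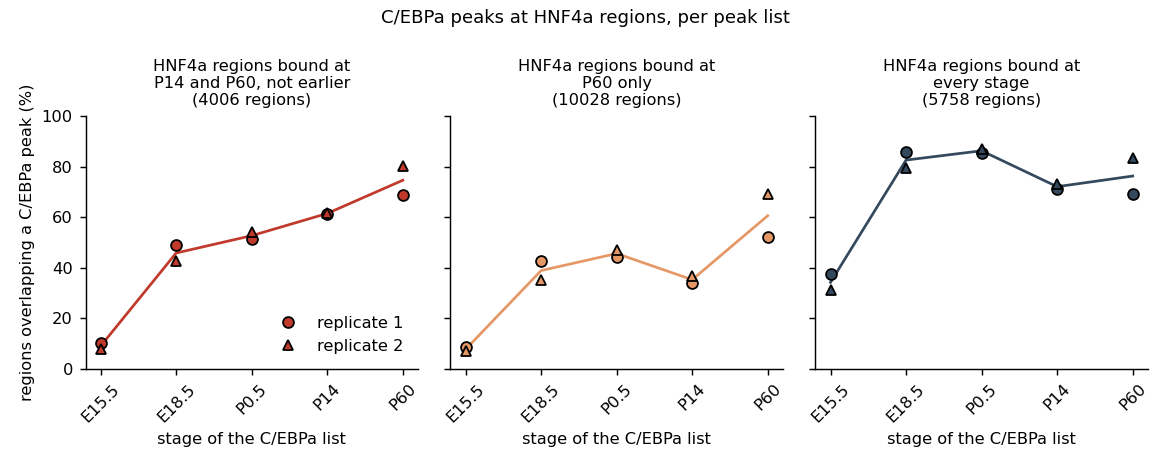
Percent of HNF4a regions overlapping a C/EBPa peak (y axis) in each of 10 C/EBPa lists, by stage (x axis), for 3 classes of HNF4a regions; circles and triangles are the 2 replicates and lines join stage means. At late regions the P14 and P60 points, 61.2% to 80.4%, all lie above the earlier ones, whereas at every-stage regions the E18.5 and P0.5 points reach 79.6% to 87.1%.

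Counting only C/EBPa regions found in both replicates, 6.49% of late regions held C/EBPa at E15.5, 40.3% at E18.5, 48.6% at P0.5, 55.7% at P14 and 65.2% at P60. C/EBPa was at 2031 late regions (50.7%) at E15.5, E18.5 or P0.5, against 43.4% of P60-only and 85.5% of every-stage regions. Because 1022 late regions held an HNF4a peak in 1 early replicate, these shares do not give an order of binding. At late regions, C/EBPa was present both early and at P14 or P60 at 1879 (46.9%), first at P14 or P60 at 917 (22.9%), early only at 152 (3.79%) and at no stage at 1058 (26.4%). Among every-stage regions, C/EBPa came first at P14 or P60 in 1.84% and was at no stage in 12.6%, and among P60-only regions in 16.7% and 40.0%. Of the late HNF4a regions, 446 (11.1%) overlapped a C/EBPa region that was itself bound at P14 and P60 and at no earlier stage, and 452 of the 1708 such C/EBPa regions (26.5%) overlapped a late HNF4a region.

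**Figure D2:**
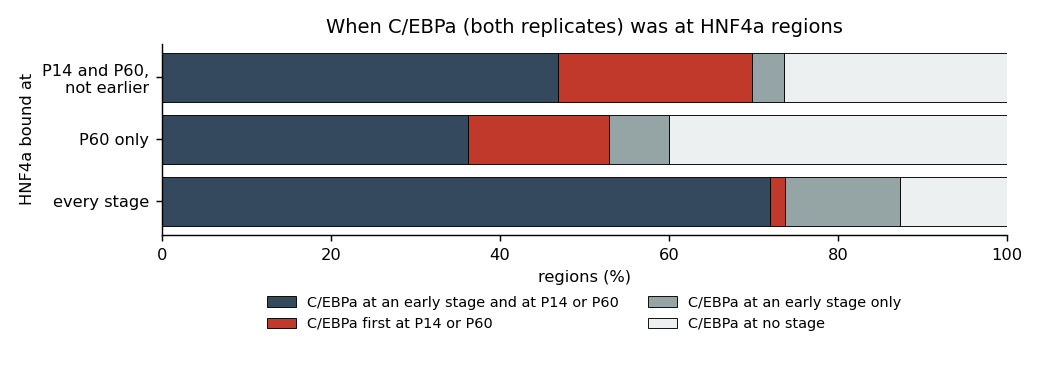
Percent of regions (x axis) in each class of HNF4a regions (rows) by the stages at which a C/EBPa region of both replicates overlapped them; the 4 colours add up to 100%. C/EBPa came first at P14 or P60 at 22.9% of late regions and at 1.84% of every-stage regions.

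Individual sites show both patterns. At the start of Serpina3k, a serine protease inhibitor of plasma, the late region (mm9 chr12:105576067-105577050) held C/EBPa at E18.5, P0.5, P14 and P60 and lay 0.134 kb from an early-bound HNF4a region. Mbl2, a mannose-binding lectin of the complement system, has 2 late regions. The one across its start (mm9 chr19:30306884-30307919) overlapped a C/EBPa peak in 1 of 10 lists. The late region at the start of Slc17a3, a urate and phosphate transporter of the solute carrier family (mm9 chr13:23930358-23931692), did so in 1 list as well. That at the start of Apol7a (mm9 chr15:77229194-77230098) overlapped a C/EBPa peak in 4 lists, and in both replicates at P60 alone. The late region inside Otc, the ornithine transcarbamylase of the urea cycle (mm9 chrX:9836363-9837215, 7.36 kb from the start), overlapped no C/EBPa peak. At Hgd, homogentisate dioxygenase of tyrosine breakdown, 1 of 2 late regions (mm9 chr16:37567067-37568262), 12.6 kb upstream and inside the neighbouring gene Rabl3, overlapped a C/EBPa peak in all 10 lists.

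To set late regions beside RNA, each was assigned to the nearest protein-coding start within 50 kb, which placed 2675 regions on 2114 genes, 9.45% of protein-coding genes in the table. Of these genes, 1676 had 1 late region, 347 had 2 and 91 had 3 or more. The values of 1856 passed the filter of at least 10 normalized reads in at least 2 libraries, and 258 did not, 87 of them listed at 0 in all 8 libraries. A gene was called when its limma adjusted p over all genes was under 0.05, its change at least 2-fold and its groups did not overlap. Changes are on the log2(value + 1) scale, which understates those of low genes.

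Late regions numbered 4 or more at 25 genes, of which 21 were tested. Of these, limma called 3 lower and 0 higher in the HNF4a KO (Akr1c14, Insr and Ppara, each with 4 late regions; Akr1c14 was named after its values were seen). In the C/EBPa KO it called 0, with 7 lower and 1 higher at an unadjusted p under 0.05. Of all 17771 genes tested, 3.17% were called lower and 1.54% higher in the HNF4a KO, and 2.86% and 0.883% in the C/EBPa KO. At an unadjusted limma p under 0.05, 1547 of them were lower and 1015 higher in the C/EBPa KO. The genes described next are the first 10 by number of late regions, with ties at 4 broken by the distance of the nearest to the start. Dhx8, an RNA helicase of splicing, and Prkaa2, a catalytic subunit of the energy sensor AMPK, had 5 each, as did Slc22a26, Slc16a10, an aromatic amino acid transporter, and the predicted gene Gm6843. Prkaa2 had 265 and 52 normalized reads in the HNF4a KO, 61, 51 and 43 in the C/EBPa KO, and 413, 174 and 165 in WT. The HNF4a KO overlapped WT, the C/EBPa KO lay below it, and neither passed the test (log2 -0.95 ± 0.68 and -2.14 ± 0.61 (SE), limma adjusted p = 0.453 and 0.0939, HNF4a KO and C/EBPa KO against WT). Slc16a10 had 2394 and 2857 in the HNF4a KO and 1442, 1407 and 1483 in WT, groups that do not overlap (limma adjusted p = 0.159). Slc22a26 had at most 8 in any library. C4bp, a regulator of complement, Abhd2, Inpp5b, a phosphoinositide phosphatase, and Ern1, the unfolded protein sensor IRE1, had 4 late regions each and limma adjusted p of 0.1 or above in the HNF4a KO.

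Among genes of late, P60-only and every-stage regions alike, the share called lower in the HNF4a KO was above that of all genes. The share called higher was near the background. Lower were 7.11% of 3827 genes of P60-only regions and 10.8% of 2968 genes of every-stage regions. These sets share genes with the late set. Of 1877 genes with a P60-only region and no late or every-stage region, 3.14% were lower. Of the 1856 genes of late regions, 154 (8.30%) were lower and 22 (1.19%) higher in the HNF4a KO than in WT. Of all 17771 genes tested, 3.17% were lower and 1.54% higher. The median log2 change was -0.26 over these genes and 0.02 over all. In bulk liver, fewer cells of a type and less RNA per cell cannot be told apart. Of the 1856, 176 were called in all. Without HNF4a KO replicate 1, which holds the muscle RNA, 73 were called (3.97% of those tested, against 1.36% of all genes). Without HNF4a KO replicate 2, WT replicate 1 or WT replicate 3 the count was 99, 99 and 117. Hnf4a itself had 1238 and 2444 in the HNF4a KO and 9098, 4948 and 6718 in WT (log2 -1.95 ± 0.45 (SE), limma adjusted p = 0.033, and 0.44 at the highest over 14 other fits).

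In the C/EBPa KO, 159 of the 1856 (8.57%) were lower and 14 (0.754%) higher than in WT, against 2.86% and 0.883% of all genes. Genes of P60-only regions were lower for 6.61% here, those of every-stage regions for 9.06% and all protein-coding genes tested for 3.23%. With a P60-only region and no late or every-stage region the share was 3.30%. Scaling by library totals moved the median change of all genes in this knockout to 0.53 on the log2 scale. It moved the split of the late-region genes to 105 lower and 37 higher. The 173 called became 113 without C/EBPa KO replicate 1 and 98 without WT replicate 1. The summed level of the 9 tested bile duct markers, of 10 listed, was 9163 to 11231 in the C/EBPa KO and 2712 to 4070 in WT. Of these markers, limma called 4 higher and 1 lower in the C/EBPa KO, and their part in the counts was not tested. Between the knockouts, 59 genes were lower (3.18%) and 51 higher (2.75%) in the HNF4a KO than in the C/EBPa KO, against 1.61% and 1.87% of all genes, and 111 and 26 when scaled by library totals, which moved the median of all genes to -0.57. Of these 110 genes, called without regard to direction, 17 were called without HNF4a KO replicate 1; the count was 58 without HNF4a KO replicate 2, 56 without C/EBPa KO replicate 1 and 71 without WT replicate 1. Both knockout comparisons share the 3 WT libraries. Cebpa itself had 322, 419 and 998 in the C/EBPa KO and 9999, 9594 and 5511 in WT (log2 -3.98 ± 0.44 (SE), limma adjusted p = 0.000413).

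The share of called genes varied with the other HNF4a regions near them. Of the late-region genes, 1079 tested had no every-stage region assigned, and 50 of these (4.63%) were lower in the HNF4a KO, whereas 218 of 2191 genes (9.95%) that had an every-stage and no late region were lower. Among all 14942 protein-coding genes tested, 3.64% were lower, and among 3980 with no HNF4a region assigned, 0.45%. Where no region bound early lay within 50 kb of the start, 76 genes were tested and limma called 0 lower. At an unadjusted limma p under 0.05, 7 of the 76 were lower and 9 higher, against 1906 and 1751 of all 17771 genes. Among the 76, Parm1 alone was called higher, with 726 and 910 normalized reads in the HNF4a KO and 179, 152 and 158 in WT. In the C/EBPa KO, Colec12, a collectin, fell to 176, 166 and 228, against 909, 698 and 743 in WT, and Cyp2c55 had 110, 95 and 68, against 1, 0 and 3 in WT; these 3 genes were named after their values were seen.

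The share called lower in the HNF4a KO was 7.37% of 1466 genes with 1 late region, 10.5% of 313 with 2 and 16.9% of 77 with 3 or more. The last share rests on 13 genes, and it was 14.3% (3 of 21) with 4 or more. With a late region that held C/EBPa at an early stage, 9.94% of 1086 genes were lower in the HNF4a KO and 10.5% in the C/EBPa KO. With no C/EBPa at any of their late regions, 5.26% of 437 genes were lower in the HNF4a KO and 4.35% in the C/EBPa KO. These shares are descriptions, and the differences between gene sets were not tested.

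**Figure D3:**
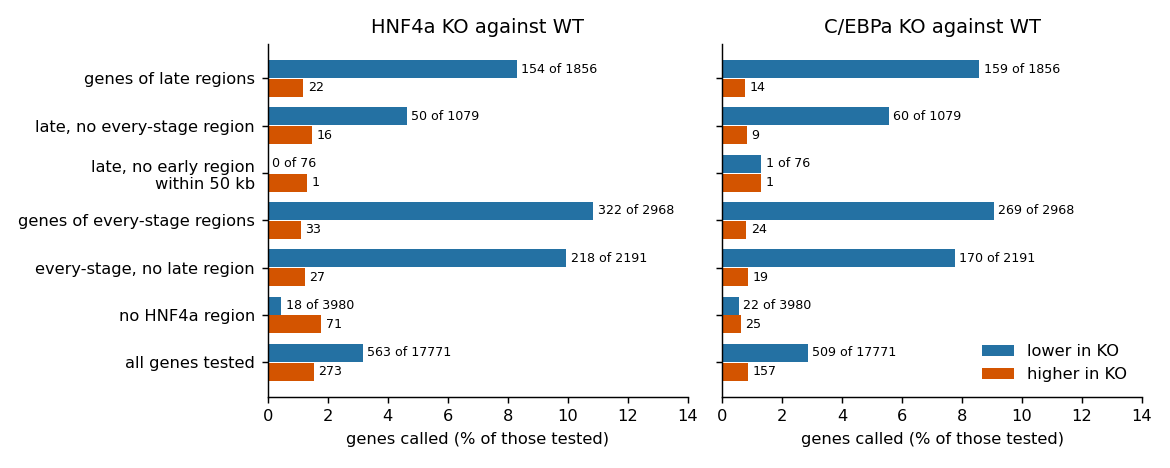
Percent of tested genes called lower (blue) or higher (orange) in the HNF4a KO (left) and the C/EBPa KO (right) against WT, by the HNF4a regions assigned to them; numbers at the bars are genes called. Of genes of late regions, 154 of 1856 were lower in the HNF4a KO, against 563 of 17771 genes tested.

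The largest falls among late-region genes were in drug-metabolizing enzymes, transporters and plasma proteins. Cyp2e1, the ethanol-inducible cytochrome P450, had 117 and 92 normalized reads in the HNF4a KO, 110, 306 and 268 in the C/EBPa KO, and 12492, 10077 and 5381 in WT. Every knockout library lay far below every WT library (log2 -6.39 ± 0.50 and -5.39 ± 0.45 (SE), limma adjusted p = 0.000171 and 7.07e-05, HNF4a KO and C/EBPa KO against WT). Its late regions lay upstream, the nearer at 2.82 kb from the start. Cyp4a10, a fatty acid hydroxylase, had 12 and 2 in the HNF4a KO, 66, 34 and 280 in the C/EBPa KO, and 1156, 1027 and 2279 in WT. Cyp3a25 had 7 and 19 in the HNF4a KO and 1616, 1188 and 1093 in WT, and Cyp3a59 was listed at 0 in all 5 knockout libraries and had 66, 102 and 58 in WT. Reads of Cyp3a, Cyp2c and Cyp2a genes could be split between near-identical copies, so the level of a single member is uncertain.

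Serpina3k had 104 and 60 in the HNF4a KO, 94, 31 and 219 in the C/EBPa KO, and 53144, 44680 and 4142 in WT. The WT libraries differ widely, with replicate 3 lowest, and still lie above all knockout libraries (log2 -8.07 ± 1.02 (SE), limma adjusted p = 0.00127, HNF4a KO against WT). Mbl2 had 16 and 14 in the HNF4a KO, 113, 132 and 225 in the C/EBPa KO, and 878, 1640 and 1362 in WT. Its fall was larger in the HNF4a KO than in the C/EBPa KO (log2 -3.24, limma adjusted p = 0.00375 for HNF4a KO against C/EBPa KO). Slco1b2, a hepatic uptake transporter of bile acids and drugs, had 49 and 64 in the HNF4a KO, 47, 33 and 102 in the C/EBPa KO, and 4948, 4849 and 1795 in WT. Slc17a3 had 4 and 17 in the HNF4a KO and 502, 428 and 613 in WT.

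Apol7a, a member of the apolipoprotein L family, had 13 and 15 in the HNF4a KO, 243, 148 and 568 in the C/EBPa KO, and 1118, 639 and 1298 in WT. The C/EBPa KO lay between the other groups, below WT without passing the test (limma adjusted p = 0.0806) and above the HNF4a KO (log2 -4.20 for HNF4a KO against C/EBPa KO, limma adjusted p = 0.00299). Entpd8, a nucleotidase of the bile canaliculus, had 9 and 37 in the HNF4a KO, 577, 214 and 508 in the C/EBPa KO, and 1327, 907 and 798 in WT. It too was lower in the HNF4a KO than in the C/EBPa KO (log2 -4.35, limma adjusted p = 0.00374), and without HNF4a KO replicate 1 this difference had an adjusted p of 0.0508. All 10 of the largest falls passed the adjusted p against WT under each of 14 other fits, with at most 0.0356 (Cyp3a25).

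The 10 largest rises were smaller, and 9 of them lost their call in at least 1 of the 12 or 14 other fits they entered. Serpina6, the corticosteroid-binding globulin, kept it: 4231 and 7276 in the HNF4a KO, 54960, 32605 and 21688 in the C/EBPa KO, and 173, 166 and 412 in WT. It rose in both knockouts (log2 4.60 ± 0.52 and 7.21 ± 0.47 (SE), limma adjusted p = 0.000739 and 2.48e-05, HNF4a KO and C/EBPa KO against WT). A late region covers its start (mm9 chr12:104894954-104896090). Cox4i2, a cytochrome c oxidase subunit of lung and hypoxia, had 728 and 571 in the HNF4a KO and 22, 34 and 8 in WT, and a limma adjusted p of 0.0614 without HNF4a KO replicate 1. Efhd1 had 124 and 161 in the HNF4a KO, 1, 0 and 0 in the C/EBPa KO, and 2, 10 and 8 in WT. Without HNF4a KO replicate 1 or 2, or WT replicate 1, its call was lost, with a limma adjusted p of up to 0.208 over its other fits.

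Cxcl10, an interferon-induced chemokine, had 535 and 708 in the HNF4a KO, 1092, 2233 and 624 in the C/EBPa KO, and 36, 32 and 107 in WT. It passed in the C/EBPa KO under every fit and lost its call in the HNF4a KO without either of its replicates (limma adjusted p up to 0.0579). Nos2, the inducible nitric oxide synthase, had 80 and 55 in the HNF4a KO and 4, 0 and 0 in WT, and lost its call without HNF4a KO replicate 1 or 2 or WT replicate 3 (limma adjusted p up to 0.245 over its other fits). Ch25h, cholesterol 25-hydroxylase, had 93 and 141 in the HNF4a KO and 7, 2 and 0 in WT, and lost it without WT replicate 3 (limma adjusted p up to 0.0586 over its other fits). These genes are also near 0 in WT, so the size of their change depends on the value added before the log. Nxph4 had 46 and 57 in the HNF4a KO and 3, 0 and 1 in WT, and lost its call without any 1 of the WT libraries (limma adjusted p up to 0.0725 over its other fits). Nptx1 had 31 and 31 in the HNF4a KO and 0, 0 and 1 in WT, and lost its call without WT replicate 1 (up to 0.0862). Asb2, a subunit of a muscle ubiquitin ligase, had 1724 and 310 in the HNF4a KO and 58, 118 and 139 in WT, and Asb16 had 355 and 124 in the HNF4a KO and 42, 22 and 25 in WT. Both were highest in the library with the muscle RNA, and without it their limma adjusted p was 0.503 and 0.445.

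Summed markers of several other cell types were higher in the HNF4a KO libraries than in WT, and those of bile duct cells were not. The summed level of 12 stellate cell and fibroblast markers was 46110 to 105755 in the HNF4a KO, 21692 to 29231 in the C/EBPa KO and 16614 to 24818 in WT, with 3 called higher in the HNF4a KO by limma. That of 11 macrophage markers was 26948 to 31981 in the HNF4a KO, 5390 to 22458 in the C/EBPa KO and 14159 to 16524 in WT, with 1 called higher. Lymphocyte and neutrophil markers summed to 98085 to 109347 in the HNF4a KO, 32829 to 92906 in the C/EBPa KO and 44939 to 66419 in WT. Of the 13 tested, limma called 0 in the HNF4a KO. Erythroid markers summed to 4071388 to 6966418 in the HNF4a KO, 1209192 to 2351519 in the C/EBPa KO and 1049527 to 3991561 in WT. The HNF4a KO and WT did not overlap, by a narrow margin, and limma called 0 of these 16 markers in the HNF4a KO. Muscle markers summed to 680875 and 889 in the HNF4a KO, 291 to 2073 in the C/EBPa KO and 323 to 511 in WT. Endothelial markers summed to 13973 to 14243 in the HNF4a KO and 9569 to 13296 in WT, with 0 called by limma. Bile duct markers summed to 2463 to 2722 in the HNF4a KO and 2712 to 4070 in WT, with 1 called lower and 0 higher. No marker of these lists was at 0 in all libraries, and none of the muscle, stellate or macrophage markers had a late region. Their part in the rises was not tested.

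**Figure D4:**
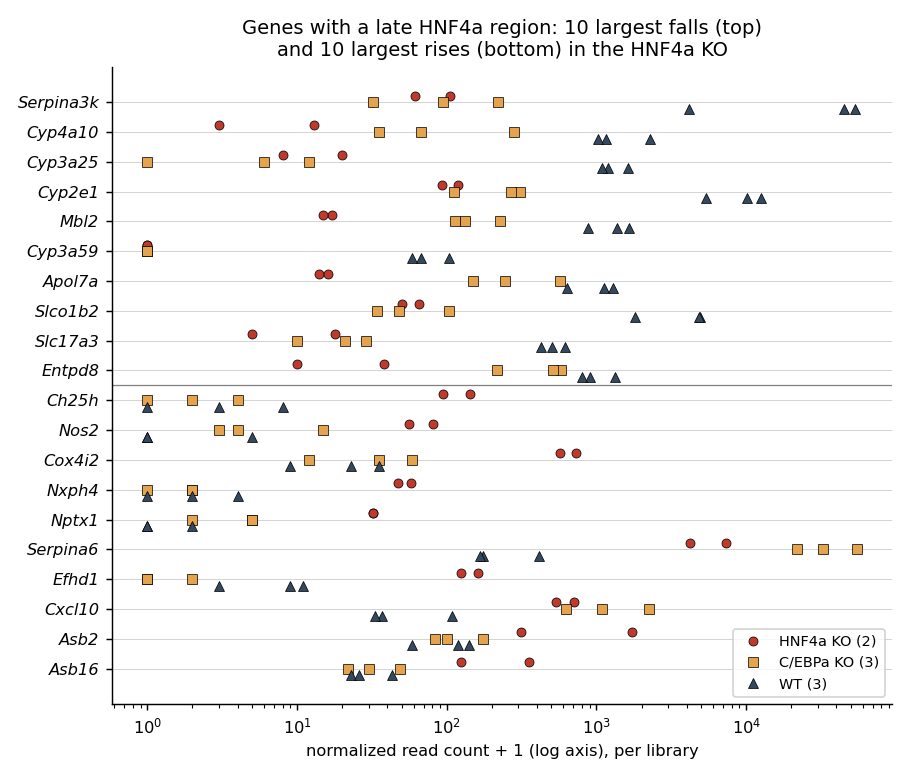
Normalized reads plus 1 in each RNA library (x axis, log scale) for the 10 largest falls (upper rows) and 10 largest rises (lower rows) in the HNF4a KO among genes with a late region; red circles are 2 HNF4a KO, yellow squares 3 C/EBPa KO and dark triangles 3 WT livers. For Mbl2, Apol7a and Entpd8 the C/EBPa KO points lie between those of the other groups, and for Serpina6 the C/EBPa KO points are the highest.

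By function, late regions were assigned to 43 of 102 genes of cytochrome P450 and xenobiotic metabolism. Of the 41 tested, 19 were lower and 0 higher in the HNF4a KO, and 17 were lower and 3 higher in the C/EBPa KO. Over the whole list, with or without a late region, 53 of 97 were lower and 1 higher in the HNF4a KO, and 43 were lower and 6 higher in the C/EBPa KO. Xenobiotic genes with a late region had a median log2 change of -2.99 in the HNF4a KO, against -3.09 for the whole list. For each list given below, the shares of all genes tested are 3.17% lower and 1.54% higher in the HNF4a KO and 2.86% lower and 0.883% higher in the C/EBPa KO, and the median log2 change of all genes in the HNF4a KO is 0.02. Cyp2a12, a steroid hydroxylase, had 38 and 20 in the HNF4a KO, 46, 71 and 63 in the C/EBPa KO, and 1094, 1114 and 1443 in WT, with no overlap between knockouts and WT (log2 -5.40 ± 0.44 (SE), limma adjusted p = 0.000171, HNF4a KO against WT).

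Bile acid genes with a late region were lower for 7 of 14 in the HNF4a KO and 9 of 14 in the C/EBPa KO, with 0 higher in either. Over all bile acid genes, with or without a late region, 23 of 37 were lower and 0 higher in the HNF4a KO, and 19 were lower and 0 higher in the C/EBPa KO. Bile acid genes with a late region had a median log2 change of -2.62 in the HNF4a KO, against -2.42 for the whole list. Cyp7a1, the rate-limiting enzyme of bile acid synthesis, had 108 and 89 in the HNF4a KO, 233, 114 and 320 in the C/EBPa KO, and 2318, 1740 and 3330 in WT. It fell in both knockouts (log2 -4.59 ± 0.47 and -3.54 ± 0.42 (SE), limma adjusted p = 0.000489 and 0.000715, HNF4a KO and C/EBPa KO against WT). Its 2 late regions lay 17.5 and 32.7 kb downstream of the start and held C/EBPa from E18.5 on. Akr1c6, a hydroxysteroid dehydrogenase, had 21 and 40 in the HNF4a KO, 173, 219 and 40 in the C/EBPa KO, and 568, 1290 and 727 in WT. Slc27a2, which activates very long-chain fatty acids and bile acids, had 543 and 540 in the HNF4a KO, 2214, 1402 and 3596 in the C/EBPa KO, and 6232, 5408 and 8125 in WT.

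Of 25 genes of the urea cycle and amino acid catabolism with a late region, 9 were lower in the HNF4a KO and 17 in the C/EBPa KO, and 0 were higher. Over all genes of this list, with or without a late region, 27 of 62 were lower and 0 higher in the HNF4a KO, and 34 were lower and 1 higher in the C/EBPa KO. Amino acid and urea cycle genes with a late region had a median log2 change of -1.41 in the HNF4a KO, against -1.54 for the whole list. Otc had 43 and 62 in the HNF4a KO, 979, 722 and 692 in the C/EBPa KO, and 1280, 1156 and 2185 in WT. Its fall passed in the HNF4a KO (log2 -4.81 ± 0.39 (SE), limma adjusted p = 0.000171) and not in the C/EBPa KO (limma adjusted p = 0.241), and the knockouts differed (log2 -3.91, limma adjusted p = 0.000997). Hgd had 123 and 146 in the HNF4a KO, 16, 12 and 62 in the C/EBPa KO, and 2007, 2159 and 1481 in WT. It lay lowest in the C/EBPa KO, without the difference between knockouts passing (limma adjusted p = 0.0506). Agxt2, an aminotransferase of glyoxylate, had 24 and 63 in the HNF4a KO and 736, 690 and 590 in WT, and Kynu, kynureninase of tryptophan breakdown, 19 and 35 in the HNF4a KO and 359, 308 and 381 in WT.

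Of 14 tested genes of glucose and glycogen metabolism with a late region, 4 were lower in the HNF4a KO and 7 in the C/EBPa KO. Over all glucose and glycogen genes, with or without a late region, 11 of 30 were lower and 0 higher in the HNF4a KO, and 16 were lower and 0 higher in the C/EBPa KO. Glucose and glycogen genes with a late region had a median log2 change of -1.09 in the HNF4a KO, against -1.37 for the whole list. Gys2, the glycogen synthase of liver, had 214 and 251 in the HNF4a KO, 1041, 807 and 1011 in the C/EBPa KO, and 2395, 2197 and 2575 in WT. Pck1, which makes phosphoenolpyruvate for gluconeogenesis, had 176 and 226 in the HNF4a KO, 13, 29 and 792 in the C/EBPa KO, and 1059, 937 and 1635 in WT, and passed in neither knockout (limma adjusted p = 0.282 and 0.0828, HNF4a KO and C/EBPa KO). Insr, the insulin receptor, had 4 late regions and 386 and 598 in the HNF4a KO, against 2019, 1552 and 2165 in WT (log2 -1.98 ± 0.44 (SE), limma adjusted p = 0.0283, lost in 5 of 14 other fits).

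Of 13 lipoprotein genes with a late region, 4 were lower in the HNF4a KO, and 5 were lower and 1 higher in the C/EBPa KO. Over all lipoprotein genes, with or without a late region, 6 of 35 were lower and 0 higher in the HNF4a KO, and 11 were lower and 1 higher in the C/EBPa KO. Lipoprotein genes with a late region had a median log2 change of -1.98 in the HNF4a KO, against -1.19 for the whole list. Apob, the structural protein of very low-density lipoprotein, had 1347 and 1768 in the HNF4a KO, 28066, 7325 and 13792 in the C/EBPa KO, and 47448, 22214 and 105213 in WT. Mttp, which loads lipid onto it, had 905 and 666 in the HNF4a KO, 2844, 1939 and 2339 in the C/EBPa KO, and 5887, 4217 and 5172 in WT. Lipc, hepatic lipase, had 213 and 196 in the HNF4a KO, 770, 551 and 1570 in the C/EBPa KO, and 3400, 3029 and 3300 in WT. Fabp2, the intestinal fatty acid-binding protein, was the member that rose in the C/EBPa KO, with 576, 358 and 109 there and 31, 27 and 36 in WT (log2 3.14 ± 0.68 (SE), limma adjusted p = 0.0259, lost in 6 of 14 other fits). In the HNF4a KO it had 7 and 2 (limma adjusted p = 0.0668 against WT, and 0.0027 against the C/EBPa KO).

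Fatty acid oxidation genes with a late region were lower for 4 of 12 in the HNF4a KO and 3 of 12 in the C/EBPa KO. Over all oxidation genes, with or without a late region, 15 of 39 were lower and 0 higher in the HNF4a KO, and 7 were lower and 2 higher in the C/EBPa KO. Oxidation genes with a late region had a median log2 change of -1.50 in the HNF4a KO, against -1.34 for the whole list. Ppara, the nuclear receptor that drives this pathway, had 4 late regions and 90 and 140 in the HNF4a KO, 479, 169 and 817 in the C/EBPa KO, and 1053, 457 and 1874 in WT (log2 -3.09 ± 0.69 (SE), limma adjusted p = 0.0275, HNF4a KO against WT, lost in 5 of 14 other fits). Acot12, a cytosolic acetyl-CoA thioesterase, had 24 and 29 in the HNF4a KO, 8, 6 and 15 in the C/EBPa KO, and 718, 409 and 745 in WT. Acot3, a peroxisomal thioesterase, had 22 and 24 in the HNF4a KO, 538, 432 and 815 in the C/EBPa KO, and 292, 69 and 131 in WT. The knockouts lay on opposite sides of WT, and their difference passed (log2 -4.59, limma adjusted p = 0.00244). Of genes of fatty acid and cholesterol synthesis with a late region, 1 of 13 was lower in the HNF4a KO (Mlxipl, the carbohydrate-responsive factor ChREBP, limma adjusted p = 0.0469, lost in 9 of 14 other fits) and 2 of 13 were lower in the C/EBPa KO. Over all synthesis genes, with or without a late region, 6 of 38 were lower and 1 higher in the HNF4a KO, and 7 were lower and 0 higher in the C/EBPa KO. Synthesis genes with a late region had a median log2 change of -0.49 in the HNF4a KO, against -0.76 for the whole list.

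Plasma protein genes of coagulation, complement and the acute phase were lower for 10 and higher for 1 of 21 with a late region in the HNF4a KO, and lower for 9 and higher for 1 in the C/EBPa KO; the gene that rose was Serpina6. Over all plasma protein genes, with or without a late region, 25 of 73 were lower and 3 higher in the HNF4a KO, and 30 were lower and 1 higher in the C/EBPa KO. Plasma protein genes with a late region had a median log2 change of -1.94 in the HNF4a KO, against -1.46 for the whole list. F9, coagulation factor IX, had 13 and 50 in the HNF4a KO, 10, 11 and 15 in the C/EBPa KO, and 1297, 1041 and 1164 in WT (log2 -5.45 ± 0.58 (SE), limma adjusted p = 0.000614, HNF4a KO against WT).

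Of 15 genes of the growth hormone, IGF and thyroid axis with a late region, 3 were lower in the HNF4a KO and 2 in the C/EBPa KO. Over all genes of this axis, with or without a late region, 6 of 28 were lower and 0 higher in the HNF4a KO, and 5 were lower and 1 higher in the C/EBPa KO. Axis genes with a late region had a median log2 change of 0.06 in the HNF4a KO, against -0.15 for the whole list. Prlr, the prolactin receptor, had 151 and 114 in the HNF4a KO, 26, 21 and 83 in the C/EBPa KO, and 919, 918 and 1982 in WT. Egfr, the epidermal growth factor receptor, had 229 and 218 in the HNF4a KO, 539, 332 and 694 in the C/EBPa KO, and 1255, 1423 and 2994 in WT. A late region of 1972 bp covers its start. Esr1, the estrogen receptor, had 3 late regions and 1 and 10 in the HNF4a KO, against 35, 54 and 55 in WT (limma adjusted p = 0.143).

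Of genes that differ between the sexes in adult liver, female-biased members with a late region were lower for 5 of 8 tested in the HNF4a KO and 4 of 8 in the C/EBPa KO, and male-biased ones for 1 of 6 and 0 of 6. Over all female-biased genes, with or without a late region, 12 of 21 were lower and 0 higher in the HNF4a KO, and 12 were lower and 0 higher in the C/EBPa KO. Female-biased genes with a late region had a median log2 change of -2.85 in the HNF4a KO, against -3.17 for the whole list. Over all male-biased genes, with or without a late region, 8 of 23 were lower and 1 higher in the HNF4a KO, and 3 were lower and 0 higher in the C/EBPa KO. Male-biased genes with a late region had a median log2 change of 0.87 in the HNF4a KO, against -0.64 for the whole list. No difference between these lists was tested. Cyp2c69 had 189 and 239 in the HNF4a KO, 119, 69 and 87 in the C/EBPa KO, and 5810, 4764 and 11708 in WT. The male-biased urinary protein genes Mup3 and Mup7 were low throughout, at 30 and 37 and at 33 and 44 in the HNF4a KO and at most 70 in WT. Mup genes are near-identical, so their reads could be split.

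All 4 tested circadian clock genes with a late region missed the threshold in both knockouts with limma, although 2 were lower and 1 higher in the HNF4a KO at an unadjusted p under 0.05, and 3 were lower in the C/EBPa KO. At that p, 1906 of all 17771 genes were lower and 1751 higher in the HNF4a KO, and 1547 were lower in the C/EBPa KO. Over all clock genes, with or without a late region, 1 of 19 was lower and 2 higher in the HNF4a KO, and 1 was lower and 0 higher in the C/EBPa KO. Clock genes with a late region had a median log2 change of -1.07 in the HNF4a KO, against -0.80 for the whole list. Nr1d1, the clock repressor Rev-erb alpha, has a late region across its start (mm9 chr11:98635878-98637365). It had 228 and 350 in the HNF4a KO, 31, 31 and 97 in the C/EBPa KO, and 98, 96 and 112 in WT. The knockouts lay apart, with the HNF4a KO higher (log2 2.61, limma adjusted p = 0.0329, lost in 7 of 13 other fits).

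Of 17 transcription factor genes with a late region, 4 were lower in the HNF4a KO and 2 in the C/EBPa KO, with 0 higher in either. Over all transcription factor genes, with or without a late region, 7 of 39 were lower and 0 higher in the HNF4a KO, and 4 were lower and 1 higher in the C/EBPa KO. Transcription factor genes with a late region had a median log2 change of -0.17 in the HNF4a KO, against -0.0012 for the whole list. Nr1i2, the xenobiotic receptor PXR, had 55 and 97 in the HNF4a KO, 465, 304 and 750 in the C/EBPa KO, and 1372, 872 and 1048 in WT (log2 -3.87 ± 0.45 (SE), limma adjusted p = 0.000871, HNF4a KO against WT). Nr1h4, the bile acid receptor FXR, had 93 and 166 in the HNF4a KO, 133, 100 and 140 in the C/EBPa KO, and 1343, 1285 and 895 in WT. It fell to a like level in both knockouts (log2 -3.21 ± 0.40 and -3.22 ± 0.36 (SE), limma adjusted p = 0.00124 and 0.000476), and its late region 19.6 kb upstream held C/EBPa in all 10 lists. Onecut1, the hepatocyte factor HNF6, had 6 and 9 in the HNF4a KO, 116, 41 and 228 in the C/EBPa KO, and 48, 22 and 82 in WT, and passed against WT in neither (limma adjusted p = 0.116 and 0.521).

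Of 22 fetal liver genes 2 had a late region, a share near the 9.45% of all protein-coding genes: Cyp3a16 and Igf2, the fetal growth factor. Igf2 had 226858 and 177270 in the HNF4a KO and 178393, 106407 and 183035 in WT (limma adjusted p = 0.838). Among erythroid, bile duct, endothelial, macrophage, stellate, lymphocyte and neutrophil, and muscle markers, 1 of 16, 0 of 10, 1 of 12, 0 of 11, 0 of 12, 2 of 15 and 0 of 16 had a late region.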

How the data were processed

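HNF4a and C/EBPa peak lists (mm9) were used as deposited by the authors, 1 list per sample, as start and end positions with no peak height. The submitters' processing notes name MACS 1.4, BWA, TopHat2, Cufflinks, bedtools and DESeq; settings, and whether peaks were called against the input, are not given in the sources used here. The RNA table holds DESeq-normalized reads rounded to whole numbers, per the file headers and notes, and each such score, as deposited by the authors, was taken as log2(value + 1). Changes were tested with limma 3.58.1 (R 4.3.3) with a variance trend, all 8 libraries in 1 fit, and adjusted by Benjamini-Hochberg over 17771 genes.

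Regions were merged in Python 3.11.15 with any overlap, and midpoints assigned to the nearest protein-coding start within 50 kb. Protein-coding status came from the deposited table. Fits were tested on simulated data. Members, gene lists and tests were chosen with earlier results of these data known. The genes named were the 10 with most late regions, the 10 largest rises and falls called in the HNF4a KO, up to 4 of each list by size of change in the HNF4a KO, and the targeted genes. RNA polymerase II and input samples were not used here. A gene that this rule names is not reported here.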

Additional observations from a re-analysis of the deposited data

How the results depend on the processing

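Alternatives with P0.5 left out of the rule, without the E15.5 C/EBPa lists and in the 300 bp window were chosen after seeing the data. So were all those for HNF4a KO against C/EBPa KO. The count of late regions was 2984 to 5910 over 14 alternatives, the highest with P0.5 left out of the rule, and 3261 to 5304 without 1 HNF4a list. The C/EBPa difference kept its direction in 18 alternatives and passed in 17, with 26.6 to 35.9 points without 1 C/EBPa list and 18.8 points without the E15.5 lists. With stage means it was 32.2 points (exact permutation test, p = 0.2, the smallest this allows). With a replicate block, permuting within replicate number, the exact permutation p was 0.02. Resting on 1 list per stage, the shares of late regions with C/EBPa were 7.71% to 10.2% at E15.5, 42.8% to 48.8% at E18.5, 51.4% to 54.0% at P0.5, 61.2% to 61.8% at P14 and 68.8% to 80.4% at P60, higher by construction than shares in both lists. By the nearest edge, 9.71% of late regions lay within 1 kb of a start. Of the late-region genes, 176 were called in the HNF4a KO, with 288 when the 2 groups were compared alone, 97 with regions assigned within 10 kb, 116 with the replicate block and 73 to 251 without 1 library; the 73 were all among the 176. In the C/EBPa KO 173 were called, with 94 within 10 kb and 98 to 216 without 1 library. For HNF4a KO against C/EBPa KO 110 were called, with 60 within 10 kb, 61 with the replicate block and 17 to 165 without 1 library. Fewer genes are assigned within 10 kb; the cause of the other changes was not tested. Replicate numbers did not pair the RNA samples: deviations of same-numbered libraries correlated between -0.231 and 0.19. A lone HNF4a KO library is assumed to vary like the other groups. The lists give no peak heights, so weak and absent binding cannot be told apart.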
